A study of Homo sapiens with 15 samples.

Results

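The 10 genes described here set and carry the entry of pyruvate into mitochondrial oxidation: the 4 pyruvate dehydrogenase kinases (PDK1, PDK2, PDK3 and PDK4), the catalytic subunits of the 2 opposing phosphatases (PDP1 and PDP2), the 2 genes of the complex's first enzyme (PDHA1 and PDHB) and the 2 subunits of the mitochondrial pyruvate carrier (MPC1 and MPC2). They were chosen by name, with earlier results of these data known, and all 10 were found among the 63241 genes of the table. PDK4 was higher in each of the 3 cultures given free fatty acids alone than in any untreated culture. The means were 123 and 11.3 TPM (a length-scaled share of all transcripts), and with fatty acids PDK4 was the most abundant kinase transcript. At 50 µM of the anthocyanin cyanidin-3-rutinoside (C3R) its mean was 52.0 TPM, lower than with fatty acids alone and still above the untreated cultures. This lower level lay close to the threshold and was lost in 15 of 27 alternative analyses. MPC2 was the other of the 10 genes that rose with fatty acids, a call lost in 7 of 27, and PDK1, PDK3, both phosphatases, PDHA1, PDHB and MPC1 passed the test in none of the 8 comparisons made.

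The pyruvate dehydrogenase complex turns pyruvate into acetyl-CoA inside mitochondria, a step that commits carbon from sugar to oxidation or to fat synthesis. The kinases switch the complex off by phosphorylating the E1 alpha subunit, which PDHA1 encodes, and the phosphatases switch it back on. In liver and muscle PDK4 is known as the kinase isoform induced by fasting and by fatty acids, through nuclear receptors of the PPAR family among others, and its induction spares glucose while fat is burned.

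RNA was sequenced from 15 cultures labelled HepG2, a human liver tumour line used as a hepatocyte model, in 5 groups of 3 biological replicates. The blank control was NC, FFA was a high-fat model made with free fatty acids at 500 µM, and FCL, FCM and FCH were the C3R intervention groups, at 25, 50 and 100 µM. The design text gives no separate fatty acid dose for these 3 groups and treats them as interventions in the high-fat model, so they are read here as given fatty acids too. No group received C3R without fatty acids, the time of treatment is not given in the sources used here, and all cultures are of 1 line. The labels do not say how the replicates were kept apart, and the p-values therefore rest on a spread between replicates that may be technical.

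The labelled cell type was checked against its markers before any result. Of 8 hepatocyte and HepG2 markers only ALB, APOA1 and SERPINA1 passed the filter of at least 1 TPM in at least 3 libraries, and the 8 summed to between 15.3 and 29.5 TPM. ALB, the serum albumin gene, had group means of 0.415 to 0.985 TPM, and AFP, the fetal albumin-like protein typical of HepG2, averaged at most 0.0733 TPM. KRT7, a keratin of bile duct and other simple epithelia, averaged between 1767 and 2398 TPM and was higher in FCM than in NC by 0.43 on the log2(TPM + 1) scale (adjusted p = 0.0454, limma), while its companions KRT19 and EPCAM were near 1 TPM or below. The data thus go against the label, and the cultures are called labelled HepG2 with no other identity given. Stellate cell or fibroblast markers summed to 41.8 to 75.5 TPM, more than the hepatocyte markers, most of it COL1A1, a collagen gene at 30.8 to 62.8 TPM, and none of the 3 of 6 that passed the filter was called in any comparison. Endothelial markers summed to at most 0.94 TPM and skeletal muscle markers to at most 0.24 TPM. The leukocyte list, of which CD68 and CSF1R passed the filter, moved with fatty acids and is given beside PDK4. The values of FCH replicate 3 appear to have been adjusted as a batch of its own, in a way that drew it towards the other FCH libraries. The FCH results are therefore also given with that adjustment undone, an alternative added after seeing the data, where their values matter. All groups share 1 estimate of the spread in the fit, so the adjustment also bears on comparisons without FCH. Within groups the libraries correlated at 0.966 to 0.987 on the log2(TPM + 1) scale.

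The promoters of the 3 genes that passed the test in some comparison are shown first, as 250 bases ending just before a RefSeq transcription start (GRCh38.p14), in lower case with matches to the searched motifs in capitals. For PDK2 and MPC2, which have several annotated starts, the start whose window holds no exon base of the gene itself and lies farthest upstream is shown. The PDK4 window is chr7:95596517-95596766 on the minus strand, the PDK2 window chr17:50094487-50094736 on the plus strand, and the MPC2 window chr1:167937073-167937322 on the minus strand.
PDK4: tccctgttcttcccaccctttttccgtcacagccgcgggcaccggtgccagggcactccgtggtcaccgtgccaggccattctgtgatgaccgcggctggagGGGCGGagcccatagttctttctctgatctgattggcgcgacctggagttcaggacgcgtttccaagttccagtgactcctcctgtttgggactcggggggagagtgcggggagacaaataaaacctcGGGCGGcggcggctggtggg
PDK2: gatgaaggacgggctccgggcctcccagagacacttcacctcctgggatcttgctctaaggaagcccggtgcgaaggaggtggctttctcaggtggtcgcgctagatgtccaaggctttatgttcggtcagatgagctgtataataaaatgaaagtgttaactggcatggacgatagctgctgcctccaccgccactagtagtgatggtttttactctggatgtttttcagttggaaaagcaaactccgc
MPC2: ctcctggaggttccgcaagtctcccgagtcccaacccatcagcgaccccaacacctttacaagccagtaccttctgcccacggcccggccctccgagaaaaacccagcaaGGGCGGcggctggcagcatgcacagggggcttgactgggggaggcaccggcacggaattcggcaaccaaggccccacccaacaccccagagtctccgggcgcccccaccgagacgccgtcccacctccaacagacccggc

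Motifs were searched on both strands in 14 such windows, those of 9 of the 10 genes matched to the RefSeq table by symbol (PDP1 was not searched). They were the nuclear receptor half-site AGGTCA, the forkhead site GTAAACA, the hypoxia response core ACGTG, the GC box GGGCGG and the TATA box TATAAA. Overlapping matches each counted, so that the palindrome CACGTG gives an ACGTG match on either strand. The PDK4 window held 2 GC boxes, starting 148 and 20 bases before the start, and the MPC2 window held 1, starting 140 bases before. The PDK2 window shown held no match, while the windows of its other 2 starts held 3 and 1 GC boxes, and the first of these also held CACGTG. The windows of the other 2 MPC2 starts also held 3 and 1 GC boxes. The last of these covers nearly the same bases as the MPC2 window shown, so the same GC box is counted in both. Neither AGGTCA, found in 12.1% of 35116 RefSeq promoter windows of this length, nor GTAAACA, found in 2.98%, occurred in any of the 14 windows. GC boxes occurred in 12 of the 14 windows and in 42.6% of all, ACGTG in 5 of the 14 and in 18.5% of all, and TATAAA in 1 of the 14 and in 10.7% of all. These counts describe letters in short windows, and say nothing of where a factor binds.

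PDK4 (ENSG00000004799, chromosome 7) was measured at 8.71, 10.6 and 14.7 TPM in the 3 NC libraries and at 134, 71.8 and 163 TPM in the 3 FFA libraries. Every FFA library lay above every NC library, and FFA replicate 2 was the lowest of its group. The mean rose from 11.3 ± 3.08 to 123 ± 46.6 TPM (SD, n = 3), a ratio of 10.8. In limma, fitted to log2(TPM + 1) of all 12950 genes that passed the filter, which shrinks fold changes of genes with few TPM, the difference was 3.28 (standard error 0.27, 95% interval 2.71 to 3.84, adjusted p = 3.87e-06). It ranked 5th among these genes by size of rise and 10th by p-value. The call held in all 27 alternative analyses, in which the difference ranged from 3.03 to 3.62.

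With C3R, PDK4 was at 106, 77.6 and 64.2 TPM in FCL, at 58.1, 50.4 and 47.6 TPM in FCM and at 49.0, 68.4 and 62.1 TPM in FCH. The FCM and FCH libraries all lay below the lowest FFA library and above the highest NC library, whereas FCL overlapped FFA. The FCM mean of 52.0 ± 5.44 TPM (SD, n = 3) was 0.424 times the FFA mean, and the log2 difference of -1.15 (standard error 0.27, 95% interval -1.71 to -0.58) passed the limma test at an adjusted p of 0.0413. FCH averaged 59.8 ± 9.89 TPM, and its difference from FFA of -0.96 (95% interval -1.52 to -0.39) did not pass (adjusted p = 0.116). FCL averaged 82.7 ± 21.5 TPM, with a difference of -0.52 (95% interval -1.08 to 0.05, adjusted p = 0.901). The slope on C3R dose over the 12 libraries given fatty acids was -0.94 per 100 µM (95% interval -1.59 to -0.29, adjusted p = 0.154). The group means were ordered by dose up to 50 µM, and the FCH mean lay slightly above the FCM mean, with overlapping libraries. With the adjustment of FCH replicate 3 undone, that library was at 69.7 TPM and the FCH against FFA difference was -0.90 (adjusted p = 0.183).

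The fall in FCM lay close to the threshold. It was lost in 15 of 27 alternatives, among them leaving out any one of 9 libraries (NC replicate 2, FFA replicates 1 and 3, each FCM and each FCH library), with adjusted p-values from 0.0537 to 0.213 without them and log2 differences from -1.49 to -0.91 over all 15 such omissions. Undoing the adjustment of FCH replicate 3 was another of the 15. It left 172 of all tested genes called in FCM against FFA, where the deposited values gave 246. Conversely, FCH passed against FFA when FFA replicate 2 was left out (difference -1.30, adjusted p = 0.027). Base composition also differed between the FFA and FCM libraries. The GC content of PDK4 transcripts, 39.4%, lies at the 10.8th percentile of tested genes. Across 12485 genes, the Spearman correlation of a library's deviations with GC content, a description over genes that share each library, was -0.406 to -0.205 in FFA and 0.301 to 0.562 in FCM. With the trends on GC content and length removed, an alternative added after seeing the data, the FCM difference was -0.73 with an adjusted p of 0.168. The part of base composition in the PDK4 difference was not tested.

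**Figure D1:**
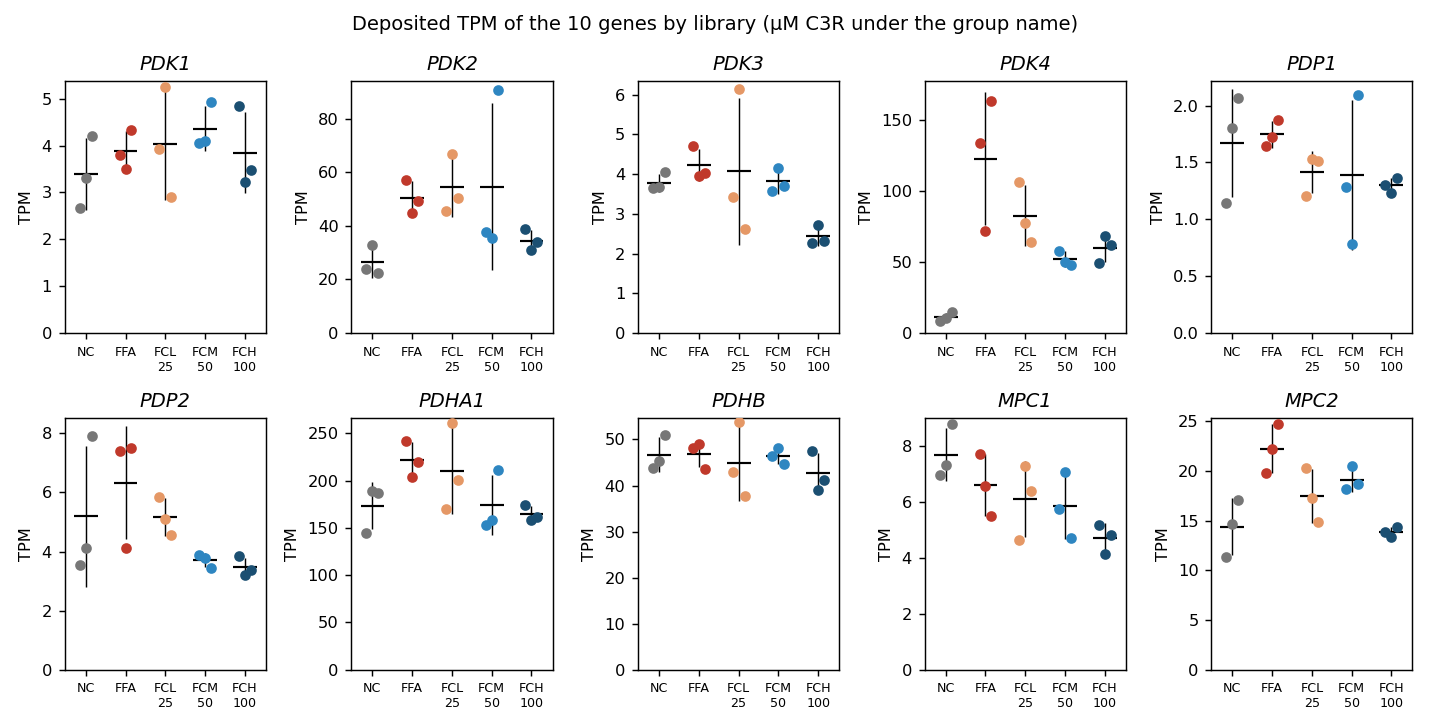
Deposited TPM of the 10 genes (vertical axes, each from 0) in the 5 groups, with 1 point a library, a horizontal line at the mean and a vertical line of 1 SD either side (n = 3). PDK4 lies between 8.71 and 14.7 TPM in NC and between 47.6 and 163 TPM in every library of the other 4 groups.

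Against untreated cultures PDK4 was higher at every C3R dose. The log2 differences from NC were 2.76 in FCL (adjusted p = 1.73e-05), 2.13 in FCM (adjusted p = 0.000189) and 2.32 in FCH (adjusted p = 0.000115), from the same limma fit, and all held in each of the 27 alternatives. In TPM, the FCL, FCM and FCH means were 7.29, 4.59 and 5.27 times the NC mean. These comparisons share their NC libraries with each other and with FFA against NC. A PDK4 antisense gene, PDK4-AS1, ran between 3.32 and 25.3 TPM, and because the use of strand in counting is not given in the sources used here, reads of overlapping opposite genes cannot be told apart. In GENCODE release 29 no gene overlaps PDK4 itself.

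Of the leukocyte markers, CD68 and CSF1R rose together with PDK4 under fatty acids. The 6 markers summed to 54.6 to 63.4 TPM in NC, 144 to 211 in FFA, 148 to 222 in FCL, 135 to 259 in FCM and 144 to 169 in FCH, and 2 of 6 passed the test in FFA against NC. CD68, a lysosomal membrane protein of macrophages that other cells also make, accounted for most of the sum, with a log2 difference of 1.61 (adjusted p = 0.000289, limma), and CSF1R, the macrophage growth factor receptor, differed by 0.87 (adjusted p = 0.0464). PTPRC, which marks all leukocytes, averaged at most 0.00333 TPM and CD3E was at 0 in every library. CD14 averaged 0.19 TPM in NC and 0.14 TPM in FFA, and LYZ 0.193 and 0.38 TPM, both below the filter. The part of these markers in the PDK4 result was not tested. In bulk RNA such as this, more cells of a type and more RNA per cell cannot be told apart.

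PDK2 (ENSG00000005882, chromosome 17), the broadly expressed kinase of liver, was the most abundant kinase transcript in NC, at 23.8, 32.7 and 22.4 TPM. It was at 57.2, 44.8 and 49.1 TPM in FFA and at 45.6, 66.8 and 50.5 TPM in FCL. In FCM it was at 37.8, 35.6 and 90.5 TPM, and in FCH at 38.7, 30.9 and 33.8 TPM. All FFA, FCL and FCM libraries lay above the highest NC library, FCH overlapped NC, and FCM replicate 3 was the highest of the 15. The FFA mean of 50.4 ± 6.28 TPM (SD, n = 3) was 1.91 times the NC mean of 26.3 ± 5.61 TPM, but the log2 difference of 0.92 (95% interval 0.34 to 1.51) did not pass the test (adjusted p = 0.0543).

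That value lay just outside the threshold, and PDK2 was called in FFA against NC in 10 of 27 alternatives, including without FCL replicate 2 (adjusted p = 0.0494), FCM replicate 2 (0.0403) or FCM replicate 3 (0.00253). PDK2 passed against NC in FCL, by 1.02 (adjusted p = 0.0308, limma), and in FCM, by 0.91 (adjusted p = 0.0415). The FCL call was lost without NC replicate 1 or 3 or FCL replicate 2 or 3, with adjusted p-values of 0.0939, 0.108, 0.111 and 0.0675. The FCM call rested on replicate 3, without which the difference was 0.48 (adjusted p = 0.125), and it was lost on leaving out any one of 10 libraries in all, the others being NC replicates 1 and 3, each FFA and each FCH library and FCL replicate 3. The GC content of PDK2 transcripts, 59.8%, lies at the 82.7th percentile of tested genes. FCM replicate 3 had the highest correlation of deviations with GC content of all libraries, 0.562, and its part in the PDK2 level was not tested. Differences of PDK2 from FFA were 0.09 in FCL, -0.01 in FCM and -0.53 in FCH (adjusted p = 0.379), with a 95% interval of -1.12 to 0.05 for FCH. In GENCODE release 29 PDK2 overlaps SAMD14 on the opposite strand, which ran at 0.03 to 0.24 TPM here. It also overlaps antisense genes on that strand, whose levels were not examined.

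PDK1 and PDK3 were far less abundant than the other two kinases. PDK1 (ENSG00000152256, chromosome 2), known as the isoform induced by hypoxia, ranged from 2.67 to 5.25 TPM over the 15 libraries, and its 5 group means lay between 3.39 and 4.36 TPM. Its FFA against NC difference was 0.16 (95% interval -0.26 to 0.59), and the groups overlapped. PDK3 (ENSG00000067992, chromosome X), the isoform with the highest known catalytic activity, was at 3.65, 3.67 and 4.05 TPM in NC and 4.71, 3.96 and 4.04 TPM in FFA. In FCH it was at 2.27, 2.73 and 2.32 TPM, below every NC, FFA and FCM library, while FCL spread from 2.63 to 6.15 TPM. The FCH against FFA difference of -0.61 (95% interval -1.04 to -0.17) nevertheless did not pass (adjusted p = 0.182).

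In TPM, which is scaled by length and so allows levels of different genes to be set side by side, the kinases exchanged rank. PDK4 made up 21.1% to 32.4% of the summed kinase transcripts in the NC libraries and PDK2 49.4% to 65.1%. In FFA the PDK4 share was 57.9% to 73.9%, in FCL 49.8% to 66.7% and in FCH 51.7% to 65.0%. In FCM it was 56.1%, 53.5% and 32.5%, the last being replicate 3, in which PDK2 was high. The ratio of PDK4 to PDK2 was therefore under 1 in the 3 NC libraries (0.324 to 0.656) and in FCM replicate 3 (0.526), and between 1.16 and 3.32 in the other 11. The summed kinase level averaged 44.8 ± 5.79 TPM in NC, 181 ± 50.7 in FFA, 145 ± 21.6 in FCL, 115 ± 28.0 in FCM and 100.6 ± 5.30 in FCH (SD, n = 3). These sums and shares are descriptions, with no test.

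**Figure D2:**
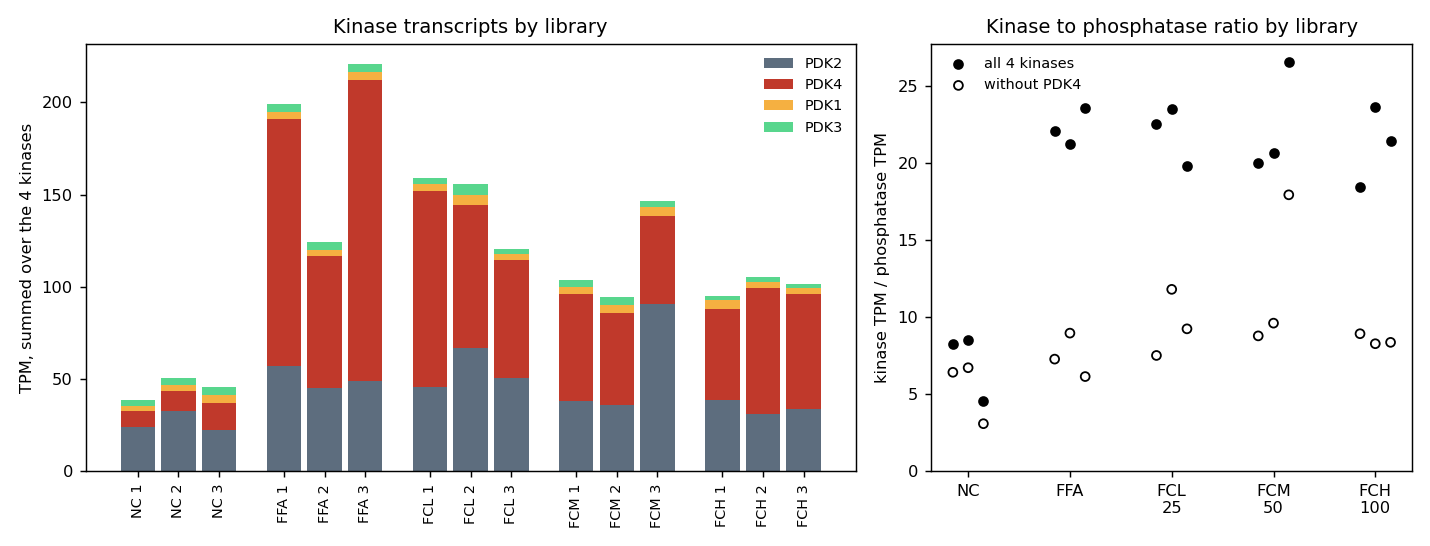
Left, TPM of the 4 kinases stacked for each library; right, ratio of the summed kinase TPM to the summed phosphatase TPM for each library, with all 4 kinases (filled) and without PDK4 (open). The filled points lie between 4.56 and 8.51 in NC and between 18.5 and 26.6 in every other library.

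The phosphatase genes were low and did not pass the test in any comparison. PDP1 (ENSG00000164951, chromosome 8), the calcium-stimulated isoform known best from muscle, ranged from 0.784 to 2.09 TPM over the 15 libraries, so that 1 of its values fell under the 1 TPM level of the filter. PDP2 (ENSG00000172840, chromosome 16), the isoform more typical of liver and fat, was at 3.54, 4.11 and 7.90 TPM in NC and 7.39, 4.11 and 7.49 TPM in FFA. It was at 5.85, 5.09 and 4.55 TPM in FCL, at 3.89, 3.78 and 3.43 TPM in FCM and at 3.83, 3.22 and 3.38 TPM in FCH. All FCM and FCH libraries lay below the lowest FFA library, and the NC and FFA groups were each spread by a single library. Against FFA the PDP2 difference was -0.60 in FCM (95% interval -1.12 to -0.09, adjusted p = 0.182) and -0.68 in FCH (95% interval -1.19 to -0.16, adjusted p = 0.202).

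Set against each other, kinase transcripts exceeded phosphatase transcripts by 7.11 ± 2.22 times in NC (SD, n = 3). The ratio was 22.3 ± 1.17 in FFA, 22.0 ± 1.92 in FCL, 22.4 ± 3.61 in FCM and 21.2 ± 2.59 in FCH. The 4 groups given fatty acids thus overlapped one another in this ratio, since both the kinase sum and the phosphatase sum had lower means in FCM and FCH than in FFA, while every one of their libraries lay above all NC libraries. Without PDK4 the ratio was 5.40 ± 2.02 in NC and 7.46 ± 1.42 in FFA, and these 2 groups overlapped. It was 9.52 ± 2.16 in FCL, 12.1 ± 5.07 in FCM and 8.52 ± 0.352 in FCH, where every library (7.51 to 17.9) lay above the highest NC library, at 6.71. The highest value was that of FCM replicate 3.

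PDHA1 (ENSG00000131828, chromosome X), the phosphorylated target of these enzymes, was the most abundant of the 10 genes in every library. It was at 145, 189 and 187 TPM in NC, at 242, 204 and 220.2 TPM in FFA and at 170.2, 261 and 200.3 TPM in FCL. In FCM it was at 153, 158 and 211 TPM and in FCH at 174, 158 and 161 TPM. FFA lay above NC and FCH without overlap, and FCL and FCM reached into FFA. The differences were 0.36 for FFA against NC (95% interval 0.02 to 0.70, adjusted p = 0.208), -0.36 for FCM against FFA (adjusted p = 0.238) and -0.43 for FCH against FFA (95% interval -0.77 to -0.08, adjusted p = 0.23), and none passed. Its gene overlaps MAP3K15 on the opposite strand, which ran at 1.00 to 2.35 TPM.

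PDHB (ENSG00000168291, chromosome 3), the partner E1 beta subunit, had the smallest difference of the 10 between FFA and NC, with means of 46.9 ± 2.88 and 46.6 ± 3.79 TPM (SD, n = 3) and a difference of 0.01 (95% interval -0.27 to 0.29). Its group means ranged from 42.6 to 46.9 TPM. The 2 subunits form E1 in equal numbers. In TPM, the PDHA1 to PDHB ratio ran from 3.29 to 5.31 over the 15 libraries. PDHA2, the testis copy of PDHA1, was listed at 0 in every library.

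Of the carrier genes, MPC2 rose with fatty acids and MPC1 did not pass the test, and the difference between them was not tested. MPC2 (ENSG00000143158, chromosome 1), the subunit present in every known form of the carrier, was at 11.4, 14.6 and 17.1 TPM in NC and at 19.7, 22.2 and 24.7 TPM in FFA, with no overlap. The mean rose from 14.4 ± 2.87 to 22.2 ± 2.47 TPM (SD, n = 3), a log2 difference of 0.61 (standard error 0.15, 95% interval 0.28 to 0.93) that passed in limma at an adjusted p of 0.0253. This call held in 20 of 27 alternatives and was lost under median-of-ratios rescaling (adjusted p = 0.0545), under quantile normalization (0.0646), with the compared groups alone (0.0733), and without NC replicate 1 (0.119), NC replicate 2 (0.0653), FFA replicate 2 (0.0556) or FFA replicate 3 (0.126). With C3R, MPC2 was at 20.3, 17.3 and 14.9 TPM in FCL, at 18.2, 20.5 and 18.7 TPM in FCM and at 13.9, 13.4 and 14.3 TPM in FCH. FCH lay below every FFA library and inside the NC range, with a difference from FFA of -0.64 (95% interval -0.97 to -0.31) that did not pass (adjusted p = 0.0901, or 0.146 with the adjustment of FCH replicate 3 undone). The overlapping gene on the opposite strand, DCAF6, ran at 2.52 to 6.89 TPM.

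MPC1 (ENSG00000060762, chromosome 6), the obligate partner of MPC2 in most tissues, was at 6.98, 7.34 and 8.79 TPM in NC and at 7.73, 6.58 and 5.52 TPM in FFA. Its FCL libraries were at 4.65, 7.29 and 6.40 TPM, its FCM libraries at 5.74, 7.09 and 4.73 TPM and its FCH libraries at 5.18, 4.13 and 4.83 TPM. All FCH libraries lay below all NC and FFA libraries, and the FCH against NC difference was -0.61 (95% interval -1.0 to -0.21, adjusted p = 0.0736), or -0.58 (adjusted p = 0.113) with the adjustment of FCH replicate 3 undone. MPC1 was called lower there in 5 of 27 alternatives, under median-of-ratios rescaling (adjusted p = 0.0358), under quantile normalization (0.0279), with array weights (0.000347), with the compared groups alone (0.0357) and without FCM replicate 3 (0.0432). The ratio of MPC2 to MPC1 was 1.63 to 1.99 in NC and 2.32 to 4.47 in the other 12 libraries. MPC1L, a testis copy of MPC1, was listed at 0 throughout.

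Counted over the 10 genes, 2 rose and none fell in FFA against NC, where 5.47% of all tested genes rose and 7.37% passed either way. The median log2 difference was 0.22 over the 10 and 0.06 over all tested genes, and 9 of 10 were positive. Against NC, 2 of the 10 were higher in FCL, where 6.51% of all tested genes were higher and 9.07% passed either way. In FCM 2 were higher (6.34% of all, and 13% either way) and in FCH 1 was (3.02%, and 5% either way), and none of the 10 was lower in these comparisons. PDK4 was called in each of these and PDK2 in FCL and FCM.

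Against FFA, none of the 10 passed in FCL, where 0.00772% of all tested genes did, and 1 of 10 had an unadjusted p under 0.05, lower, against 3.55% of all. In FCM 1 of 10 fell, against 1.83% of all (1.9% passed either way), and 3 had an unadjusted p under 0.05, all lower, against 16.3% of all tested genes. None passed in FCH, where 0.193% of all did, but 6 had an unadjusted p under 0.05, all of them lower, against 10.8% of all. The median of the 10 in FCH against FFA was -0.48, against -0.07 over all tested genes, and all 10 differences were negative. Over the alternatives this difference reached 0.11 for PDK1 and 0.03 for PDHB, so their signs were not stable. All of the 10 but PDK2 lie between the 10.8th and 38th percentile of tested genes in GC content. The correlation of library deviations with GC content was -0.406 to -0.205 in FFA and 0.0462 to 0.318 in FCH. Its part in the common sign was not tested. For the dose slope none passed (0.371% of all did), 7 had an unadjusted p under 0.05, all with a negative slope against 11% of all, and the median was -0.51 against -0.08. The FCL, FCM and FCH comparisons share the FFA libraries, so the common sign is not independent between them. The unadjusted counts in FCH and for the slope use the deposited values, in which the spread within FCH may be too small.

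**Figure D3:**
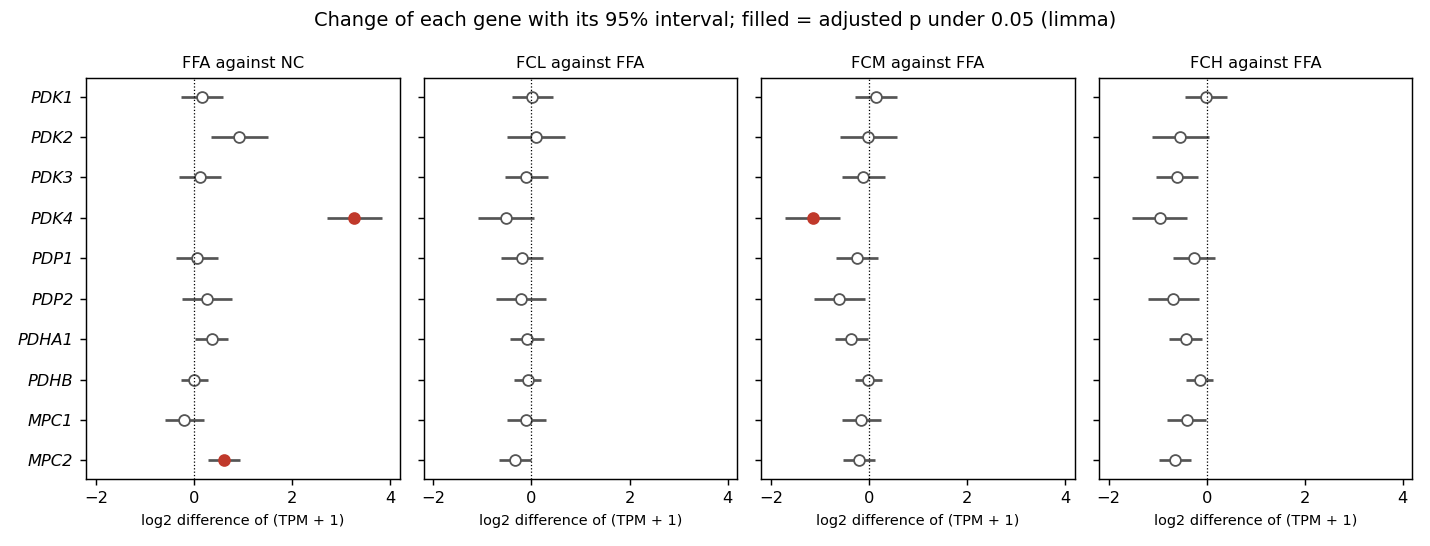
Log2 difference of (TPM + 1) for each of the 10 genes (horizontal axis) with its 95% interval, in 4 comparisons, with filled points for an adjusted p under 0.05 in limma. PDK4 and MPC2 are filled in FFA against NC, PDK4 alone in FCM against FFA, and in FCH against FFA all 10 points lie below 0.

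PDK4 was next set beside other genes known to respond to fatty acids through PPAR. Of 9 such genes 7 passed the filter, and 6 rose in FFA against NC. ANGPTL4, a secreted inhibitor of lipoprotein lipase, rose by 2.99 on the log2 scale (adjusted p = 4.23e-08, limma), FGF21, a fasting hormone, by 2.73 (adjusted p = 1.15e-05), CPT1A, the gatekeeper of mitochondrial fatty acid uptake, by 1.03 (adjusted p = 0.000609) and ACADVL, which starts oxidation of very long chains, by 0.71 (adjusted p = 0.000553). PLIN2 and FABP1 also rose, and SLC25A20 did not pass. PLIN2 and FABP1 were under 1 TPM in every NC library, with means of 0.345 and 0.278 TPM. They passed the filter only through groups given fatty acids, so a rise against NC was partly built into their being tested. The median of the 7, which is the value of PLIN2, was 1.08, against 0.06 over all tested genes.

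None of these 7 passed at any C3R dose against FFA. In FCM, where PDK4 differed from FFA by -1.15, the median of the 7 was 0.03 against -0.07 over all tested genes, and ANGPTL4 differed by 0.33, CPT1A by 0.03 and FGF21 by -0.36. In FCH the median was -0.04, with FGF21 at -0.66 and ANGPTL4 at 0.12. ANGPTL4 stood at 856, 650 and 780 TPM in FFA and at 872, 830 and 1203 TPM in FCM, so these groups did not show the order that PDK4 did. The difference between PDK4 and these genes was not tested. Against NC, 6 of the 7 were higher in each of FCL, FCM and FCH, and the limit given for PLIN2 and FABP1 holds there too.

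**Figure D4:**
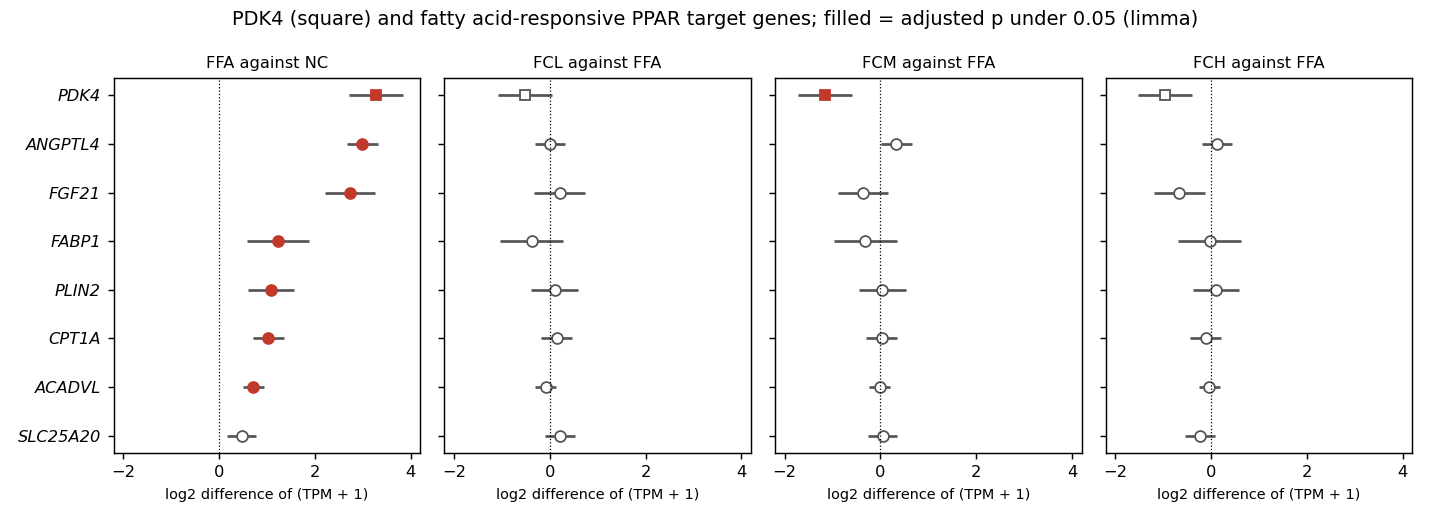
Log2 difference of (TPM + 1) with its 95% interval for PDK4 (square) and 7 other genes known to respond to fatty acids through PPAR (circles), in 4 comparisons, filled for an adjusted p under 0.05 in limma. In FFA against NC 7 of the 8 points are filled, and in FCM against FFA PDK4 alone is.

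The factors known to act on PDK genes were measured at their own transcripts, of which 12 of 13 passed the filter, and none was called in any of the 8 comparisons. PPARA averaged 2.23 TPM in NC and 4.04 TPM in FFA, a difference of 0.60 that did not pass, PPARD 9.14 and 8.76 TPM and PPARG 16.2 and 20.5 TPM. HIF1A, the hypoxia factor known to induce PDK1, differed by -1.22 between FCM and FFA without passing. HNF4A, a hepatocyte factor, was below the filter.

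The rest of the complex and its neighbours in metabolism gave few calls. Of the other components, DLAT and DLD (the E2 and E3 enzymes), PDHX (the E3 binding protein) and PDPR (the regulatory subunit of the phosphatase), all 4 passed the filter, and DLD alone was called, lower in FCM than in NC by -0.92 (adjusted p = 0.0292, limma). Among 14 of 17 tested genes for sources and fates of pyruvate, SLC25A1, the mitochondrial citrate exporter, was higher in FFA than in NC by 0.45 (adjusted p = 0.0333) and in FCL by 0.48 (adjusted p = 0.0221). In FCM against NC, SLC25A1 was higher by 0.43 and PC, which carboxylates pyruvate to oxaloacetate, by 0.42, while ME2, a mitochondrial malic enzyme, was lower by -0.91. BCKDHA, the E1 alpha subunit of the sister complex for branched-chain amino acids, was higher in FCM than in NC by 0.52 (adjusted p = 0.0118), the only one of 6 tested genes of the sister complexes to be called. No gene of these lists passed against FFA at any dose.

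The 5 genes whose pattern over the 15 libraries was most like that of PDK4, by root mean square difference of centred log2(TPM + 1) values, were AKR1C2 (0.37), AKR1C1 (0.37), FGF21 (0.47), AKR1C3 (0.48) and PRDM1 (0.50), where the PDK4 pattern itself has an SD of 1.16. AKR1C1, AKR1C2 and AKR1C3 are close copies encoding aldo-keto reductases, so the split of reads among them is uncertain. AKR1C2 averaged 27.8 TPM in NC, 245 in FFA, 207 in FCL, 166 in FCM and 133 in FCH. PRDM1, a transcriptional repressor, averaged 3.56, 19.4, 14.6, 12.3 and 10.2 TPM in the same order. For these genes, unlike PDK4, the FCH mean lay below the FCM mean. This likeness is a description, with no test.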

How the data were processed

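Stranded libraries were made from poly(A) RNA, per the labels' protocols. The authors used HiSat2 for alignment and RSEM for quantification, per the series' design text. The deposited values are TPM for 63241 genes, 1 column a library. TPM keep no depth, so depth is unknown and no counting interval is given. Columns summed to between 1001311 and 1001313 TPM, except that of FCH replicate 3, at 990018. In 12775 genes the values carried a shift with the form of a mean-only batch adjustment of FCH replicate 3, which no label mentions. Under that model this library kept 41.6% of its deviation, so the spread within FCH may be too small, and undoing it returned 99.9% of these genes to whole multiples of 0.01 TPM (tolerance 0.0001 TPM). The deposited values were used, and the undone values served as an added alternative.

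The 12950 genes that reached 1 TPM in 3 or more libraries were fitted as log2(TPM + 1) with limma 3.58.1 in R 4.3.3, on group means of all 15 libraries, with empirical Bayes and a mean-variance trend. The dose slope used the 12 libraries given fatty acids. Tests were two-sided and called at a Benjamini-Hochberg adjusted p under 0.05 over all tested genes. The procedure was tested on simulated data. Alternatives changed the pseudocount (0.1), the filter, the scaling, library weights, the samples fitted, the library number and each library in turn. The 10 genes and the comparison lists were chosen with earlier results of these data known. All 10 genes are described, other genes come from the lists, named where called (at most 4 per list and comparison by p-value) or, for SLC25A20, PLIN2, FABP1, the PPAR genes, HIF1A and levels set beside PDK4, chosen after their values were seen. Markers are named to check the label. Other listed genes enter as counts only, and 1 gene was left out of these counts and is not reported here.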

Additional observations from a re-analysis of the deposited data

How the results depend on the processing

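Across 27 alternatives, 2128 values of the 10 genes were recomputed. Of these 2038 kept their call or stayed uncalled, 41 lost a call, 48 gained one, and 1 gained a call in the opposite direction, PDHA1 in FCM against NC with array weights (-0.25, adjusted p = 0.0144, limma). Among the 2038 were 93 uncalled values that changed sign. Some of the 2038 could not change: the dose slope uses no NC library, so leaving out an NC replicate repeats the main fit. Leaving out a library outside a comparison of 2 groups keeps its difference and alters only the estimated spread. Array weights gave FCH replicate 3 a weight of 100.5 against 0.142 to 9.44 elsewhere, and with them the number of the 10 genes called was 2 in FCL against FFA, 4 in FCM against FFA, 7 in FCH against FFA, 7 for the dose slope, 6 in FCM against NC and 5 in FCH against NC. In the same order these weights called 6.74%, 30.6%, 26.2%, 21.7%, 45.3% and 39.5% of all tested genes. In FCM against FFA the count of 1 became 0 with no filter, with the replicate block, with the compared groups alone, with a term for libraries 12 to 15, with the adjustment of FCH replicate 3 undone and with GC and length trends removed. With the compared groups alone, 4 were called in FCH against FFA. Against NC, the count became 1 in FCL with no filter, and 1 in FCM with no filter, with the replicate block, with the compared groups alone and with the term for libraries 12 to 15, but 4 with GC and length trends removed. In FCH it became 2 under median-of-ratios rescaling, under quantile normalization and with the compared groups alone. Leaving out each library in turn gave 1 to 3 in FFA against NC, 0 in FCL against FFA, 0 to 1 in FCM and in FCH against FFA, 0 for the slope, and 1 to 2 in each of FCL, FCM and FCH against NC. The causes of these changes were not tested.

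Among all tested genes the number called in FCM against FFA, 246, was 800 under median-of-ratios rescaling, 66 with the replicate block and 1 with the compared groups alone, and in FCH against FFA, 25, it was 740 with the compared groups alone. Leaving out 1 library gave between 1 and 599 calls in FCM against FFA, with 1 when FFA replicate 1 was omitted, 2 when FFA replicate 3 or FCM replicate 2 was, and 599 when NC replicate 1 was, and 2 to 171 in FCH against FFA, the highest without FCM replicate 3. The shares of all genes called in these comparisons move likewise. The replicate numbers did not pair the samples: deviations of same-numbered libraries from their group means correlated at -0.163 to 0.154, -0.155 to 0.0753 and -0.35 to 0.0753 for replicates 1, 2 and 3. With the replicate block PDK4 in FCM against FFA had an adjusted p of 0.0686 and PDK2 in FCM against NC 0.0605. No scaling moved the median of all genes by more than 0.096 on the log2 scale. Genes near 1 TPM, such as PDP1, can show little on log2(TPM + 1).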
